A study of Mus musculus with 34 samples.

Results

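The genes described here were silent in vehicle-treated cells and on after treatment with a pair of histone deacetylase (HDAC) inhibitors. They were chosen by their measured level: a gene was a member where its RPKM was below 0.5 in DMSO and above 3 in both CI-994 and Vorinostat. RPKM is reads per kilobase of transcript and per 1000000 reads, so it allows for transcript length and library size. Values can still shift together between conditions. Over genes above 5 RPKM in DMSO or the compound, the median log2 ratio to DMSO was -0.44 in CI-994 and -0.36 in Vorinostat. It was -0.27 in BRD4884 and -0.19 in BRD6688. Of 52661 genes in the table, 39542 were below 0.5 RPKM in DMSO, and 161 of those were members. The low DMSO value and the high CI-994 and Vorinostat values are therefore what selected the genes, and they are given below as a description with no test.

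The samples were 34 polyA+ RNA-seq libraries of mouse Neuro-2A (N2A) cells, a neuroblastoma line, each treated for 24 h in 0.4% DMSO. DMSO alone had 3 libraries. CI-994 (5 µM), Vorinostat, also called SAHA (2.5 µM), BRD4884 (10 µM) and BRD6688 (10 µM) had 2 biological replicates each, and 23 further compounds, 5-azacytidine (5 µM) among them, had 1 library each. All compounds shared the same DMSO libraries, and the RPKM table holds 1 pooled value per condition, so differences in RPKM have no replicate check. The replicated measurement used for tests was the number of reads across exon-exon junctions, summed per gene and library, which was available for 126 of the 161 members, all protein-coding. These are given as RPM, reads per 1000000 junction reads of the library. Junction totals ranged from 17702718 to 40613524 reads per library. All 12 neuroblastoma and neuronal markers examined, such as Tubb3 and Chga, were above 1 RPKM in DMSO, and the 3 blood markers (Ptprc, Cd3e and Csf1r) were all below 1 RPKM in DMSO, CI-994, Vorinostat and BRD4884. Single markers of other lineages were higher in the inducers: Afp of the liver list was at 0.08 RPKM in DMSO, 2.36 in CI-994 and 2.88 in Vorinostat, Krt8 of the epithelial list at 0.14, 1.48 and 1.49, and the glial Gfap at 0.29, 0.97 and 3.57. The defining markers Alb, Epcam and Sox10 were at 0 RPKM in DMSO and at most 0.22 RPKM in CI-994 and Vorinostat. What part such cells have in the results was not tested.

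Histone deacetylases remove acetyl groups from lysines of histone tails, which favours compact chromatin and low transcription, and inhibitors of these enzymes let acetylation build up. CI-994 acts on the class I enzymes HDAC1, HDAC2 and HDAC3, whereas Vorinostat acts on a wider set. The study presents BRD4884 and BRD6688 as derivatives of CI-994 that are kinetically selective, naming HDAC2 in one place and HDAC1 to HDAC3 in another. The nucleoside analogue 5-azacytidine is incorporated into nucleic acids and traps DNA methyltransferases, and so addresses the other main layer of gene silencing, the methylation of CpG dinucleotides.

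In GENCODE vM21, 136 of the 161 members were protein-coding genes, and 25 were not. The latter comprised 10 lincRNAs, 8 small RNA genes (5 miRNA, 2 snRNA and 1 snoRNA), 4 pseudogenes, 2 antisense transcripts and 1 processed transcript. The library kit does not mark strand, and 16 members overlapped a gene above 5 RPKM in DMSO. In these, reads of the partners cannot be told apart where exons coincide. Examples are Adgre5 beside Ddx39 and Kdelr3 beside Ddx17. The small RNA genes are short, most of them near 100 bases, so a few reads give a large RPKM. They are counted in the totals, but their values are described apart.

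Promoter sequence is shown for 5 members that recur below: the detoxification genes Gstt1 and Gstm7, the Notch ligand Dner, the antigen-presenting molecule Mr1, whose level did not separate BRD4884 from BRD6688, and the germline gene Tex19.1, which stood out in 5-azacytidine. Each run is the 250 bases before the RefSeq transcript start (GRCm38.p6, read 5′ to 3′ on the gene's strand), overlaps no exon in GENCODE vM21, and has its CG dinucleotides in capitals. The Gstt1 run lies inside the GENCODE vM21 span of its gene, chr10:75783813-75798584. Gstt1 lies on the minus strand at chr10:75797732-75797981, Gstm7 on the minus strand at chr3:107931818-107932067, Dner on the minus strand at chr1:84696222-84696471, Mr1 on the minus strand at chr1:155146815-155147064, and Tex19.1 on the plus strand at chr11:121145893-121146142.
Gstt1: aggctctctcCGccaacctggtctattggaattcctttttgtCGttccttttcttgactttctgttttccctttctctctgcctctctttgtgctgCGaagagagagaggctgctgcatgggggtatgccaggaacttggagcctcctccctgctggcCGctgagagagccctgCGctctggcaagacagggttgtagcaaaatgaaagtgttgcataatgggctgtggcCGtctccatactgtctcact
Gstm7: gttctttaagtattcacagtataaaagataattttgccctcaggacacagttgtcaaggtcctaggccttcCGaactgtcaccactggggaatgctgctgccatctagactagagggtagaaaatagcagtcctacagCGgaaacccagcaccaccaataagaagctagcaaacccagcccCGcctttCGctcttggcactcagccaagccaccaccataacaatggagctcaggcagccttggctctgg
Dner: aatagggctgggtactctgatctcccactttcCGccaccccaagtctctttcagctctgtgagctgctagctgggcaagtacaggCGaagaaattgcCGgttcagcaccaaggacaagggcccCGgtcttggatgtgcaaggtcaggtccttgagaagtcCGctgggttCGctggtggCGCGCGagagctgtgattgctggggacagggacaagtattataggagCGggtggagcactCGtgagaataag
Mr1: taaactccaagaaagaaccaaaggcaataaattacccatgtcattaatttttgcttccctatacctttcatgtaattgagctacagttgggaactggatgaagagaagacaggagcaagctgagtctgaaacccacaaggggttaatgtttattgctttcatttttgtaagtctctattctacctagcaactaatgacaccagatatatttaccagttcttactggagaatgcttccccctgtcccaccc
Tex19.1: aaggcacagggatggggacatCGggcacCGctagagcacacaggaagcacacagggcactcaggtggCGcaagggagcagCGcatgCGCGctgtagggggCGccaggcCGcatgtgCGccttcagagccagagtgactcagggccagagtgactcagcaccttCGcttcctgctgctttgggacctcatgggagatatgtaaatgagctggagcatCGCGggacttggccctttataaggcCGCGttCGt

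The 5 windows ran from 0 CG dinucleotides for Mr1 to 15 for Tex19.1, with 4 for Gstm7, 6 for Gstt1 and 11 for Dner. A RefSeq promoter of 300 bases (250 before and 50 after the start) was found for 102 of the 161 members. Gsta4 had no entry. The median ratio of observed to expected CpG was 0.47 in members (quartiles 0.25 and 0.66). It was 0.26 in the 6958 matched genes below 0.5 RPKM in DMSO and 0.79 in the 8548 matched genes at or above that limit, so the members lay between the silent and the expressed genes. Restricting the silent genes to those listed above 0 in DMSO gave a median of 0.33. In members 34.3% of windows had a ratio over 0.6, against 20.3% of silent and 76.8% of expressed genes. For silent genes listed above 0 in DMSO the share was 26.4%.

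**Figure D1:**
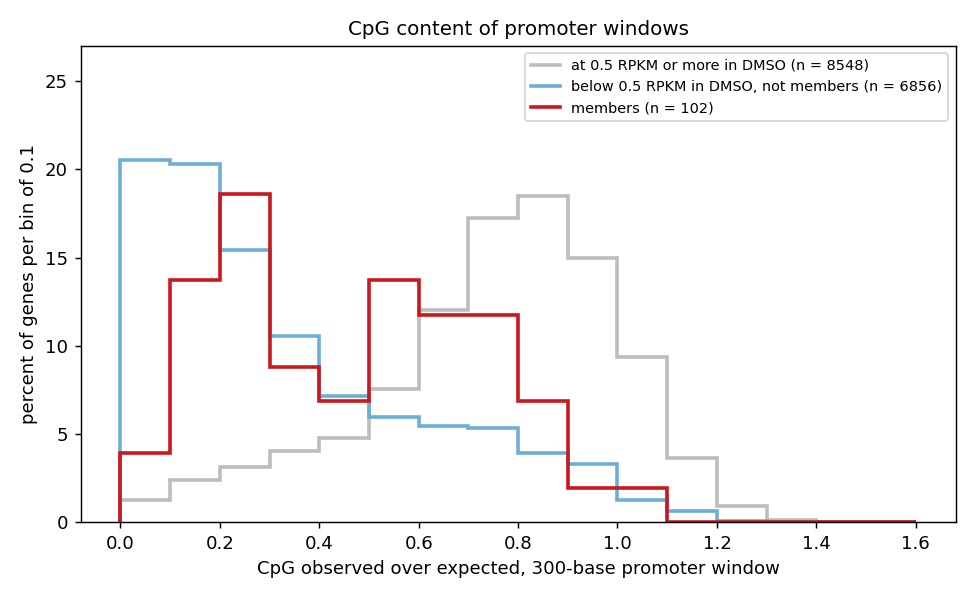
Distribution of the ratio of observed to expected CpG (x axis, no unit) in 300-base promoter windows, as the percent of genes per bin of 0.1 (y axis), for 102 members (red), other genes below 0.5 RPKM in DMSO (blue) and genes at or above 0.5 RPKM (grey). The member outline has its median at 0.47, between 0.26 for all silent genes and 0.79 for expressed genes.

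The GC box GGGCGG, searched on both strands, was in 52.9% of member windows, 27.2% of silent and 67.3% of expressed gene windows. CCAAT was in 31.4% of member windows, 37.3% of silent and 39.7% of expressed gene windows. TATAAA was in 15.7% of member windows, 20.9% of silent and 5.99% of expressed gene windows. The E-box CACGTG was in 8.82% of member, 5.58% of silent and 10.5% of expressed gene windows. The full cAMP response element TGACGTCA was in 0 of 102 member windows, 0.963% of silent and 3.74% of expressed gene windows. Over all 15504 matched genes the shares were 49.3% for the GC box, 38.6% for CCAAT, 12.7% for TATAAA, 8.31% for CACGTG and 2.5% for TGACGTCA. Among silent genes listed above 0 in DMSO they were 35.2%, 35.4%, 16.7%, 6.64% and 1.19% in the same order, so for TATAAA members were close to that set. Of the printed genes, Gstm7 held all 3 of the GC box, CCAAT and TATAAA within its 300 bases. Gstt1 held CCAAT and Tex19.1 held the TATAAA motif, and none of the searched motifs was found for Dner and Mr1. These matches are letters in a window and say nothing of binding.

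By the rule, the members' median RPKM was 0.19 in DMSO, 5.96 in CI-994 and 5.51 in Vorinostat. For 11 members the DMSO value was listed as 0 RPKM. Among all genes below 0.5 RPKM in DMSO, 331 (0.837%) were above 3 RPKM in CI-994 and 248 (0.627%) in Vorinostat. The rule thus took 161 genes shared by these lists and left 170 silent genes that passed in CI-994 only and 87 that passed in Vorinostat only. CI-994 gave the higher value for 91 members and Vorinostat for 70. On the DMSO side Cyp4b1, Espn and RP23-444J3.2 were just inside the limit at 0.49 RPKM, and Ccno, Cpne5 and Fam102a were just outside at 0.5 RPKM. On the CI-994 side Hist1h1e, Pdk2 and Ptpn18 entered with 3.02 RPKM, whereas Spp1 (2.95), Cfap70 (2.98) and Prr9 (3.0) did not. On the Vorinostat side Irf5 (3.02), Hpse (3.03) and Gm24019 (3.04) entered, whereas Csn3 (2.97), Gipr (2.99) and Itpr3 (3.0) did not.

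The 10 members with the highest lower value of the inducers had varied roles. Adgrg1, an adhesion G protein-coupled receptor, was at 0.39 RPKM in DMSO, 39.13 in CI-994 and 27.73 in Vorinostat. Gsta4, a glutathione transferase that clears products of lipid peroxidation, was at 0.26, 27.29 and 44.63 RPKM in the same order. Adgre5, another adhesion receptor also known as Cd97, was at 0.31, 23.32 and 17.23 RPKM. Fblim1, a filamin-binding protein of cell-matrix junctions, was at 0.46, 39.05 and 17.20 RPKM. Nts, the precursor of the neuropeptide neurotensin, was at 0.03, 30.11 and 13.81 RPKM. Dner, a neuronal Notch ligand, was at 0.04, 14.82 and 14.60 RPKM. The rest of the 10 highest were Gstt1, Gstm7, the Ras GTPase-activating protein gene Rasa4 and Spata20, whose lower value of the inducers ran from 13.10 to 15.84 RPKM.

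The gene lists were drawn up from gene symbols or their first letters. They miss genes of the same kind with other symbols, such as the immunity genes Tlr3 and Irf5 and the ion channel gene Tmem63a. By symbol, 8 members were in the list of cytochromes P450 and conjugating enzymes, the group that oxidises foreign compounds and couples them to water-soluble molecules. Under this name the list also takes in alcohol and aldehyde dehydrogenases (Adh and Aldh symbols), through which Aldh1a7 entered. These 8 were Gsta4, Gstt1, Gstm7, Mgst1, Cyp4b1, Aldh1a7, Gstm6 and Sult2b1, or 4.4% of the 182 silent genes of that list. The share was 0.407% of all silent genes and 1.14% of silent genes with a regular gene name. The collagens and matrix genes had 3 members of 40 silent genes (Col1a1, Col6a1 and Col5a3). The neuronal and synaptic list had 2 of 32 (Syt3 and Cntnap2), the germ cell list 2 of 40 (Tex19.1 and Tex15), and the cytoskeletal and muscle list 2 of 49 (Des and Tnnt1). Lectins and immune genes had 4 of 331 (Clec2i, Cd82, Cd7 and Tnfrsf9), serpins and proteases 3 of 214 (Serping1, Prss16 and Serpinb1a), and ion channels 2 of 174 (Kcnn1 and Chrnb1). Solute carriers had 1 of 186 (Slc52a3), and keratins, claudins and cadherins had 1 of 107 (Cldn23). None of the 90 silent homeobox genes was a member, and 6 of 4527 silent Gm or Rik models were, all of them small RNA genes. Desmin (Des), a muscle intermediate filament, reached 4.92 RPKM in CI-994, whereas the muscle regulators Myod1 and Myog stayed at or below 0.09 RPKM. Similarly, the germ cell markers Ddx4 and Mael stayed at or below 0.23 RPKM in CI-994 and Vorinostat, although Ddx4 was at 0.01 RPKM in DMSO. Sycp3 of the same list was at 0.09 RPKM in DMSO, 0.41 in CI-994 and 0.4 in Vorinostat. Dazl was already at 5.04 RPKM in DMSO.

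Few members lay next to each other. Within 100 kb, 7 neighbouring pairs were found, among them Gstm7 and Gstm6 (gap of 7029 bp on chromosome 3), the alpha-globin genes Hba-a1 and Hba-a2 (gap of 12023 bp on chromosome 11) and the run Col1a1, Sgca and Pdk2 on chromosome 11 (gaps of 9748 and 49930 bp). Hba-a1 and Hba-a2 are near-identical, so the division of reads between them is uncertain. Their values were 11 and 15.01 RPKM in CI-994 and 27.54 and 7.80 RPKM in Vorinostat.

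**Figure D2:**
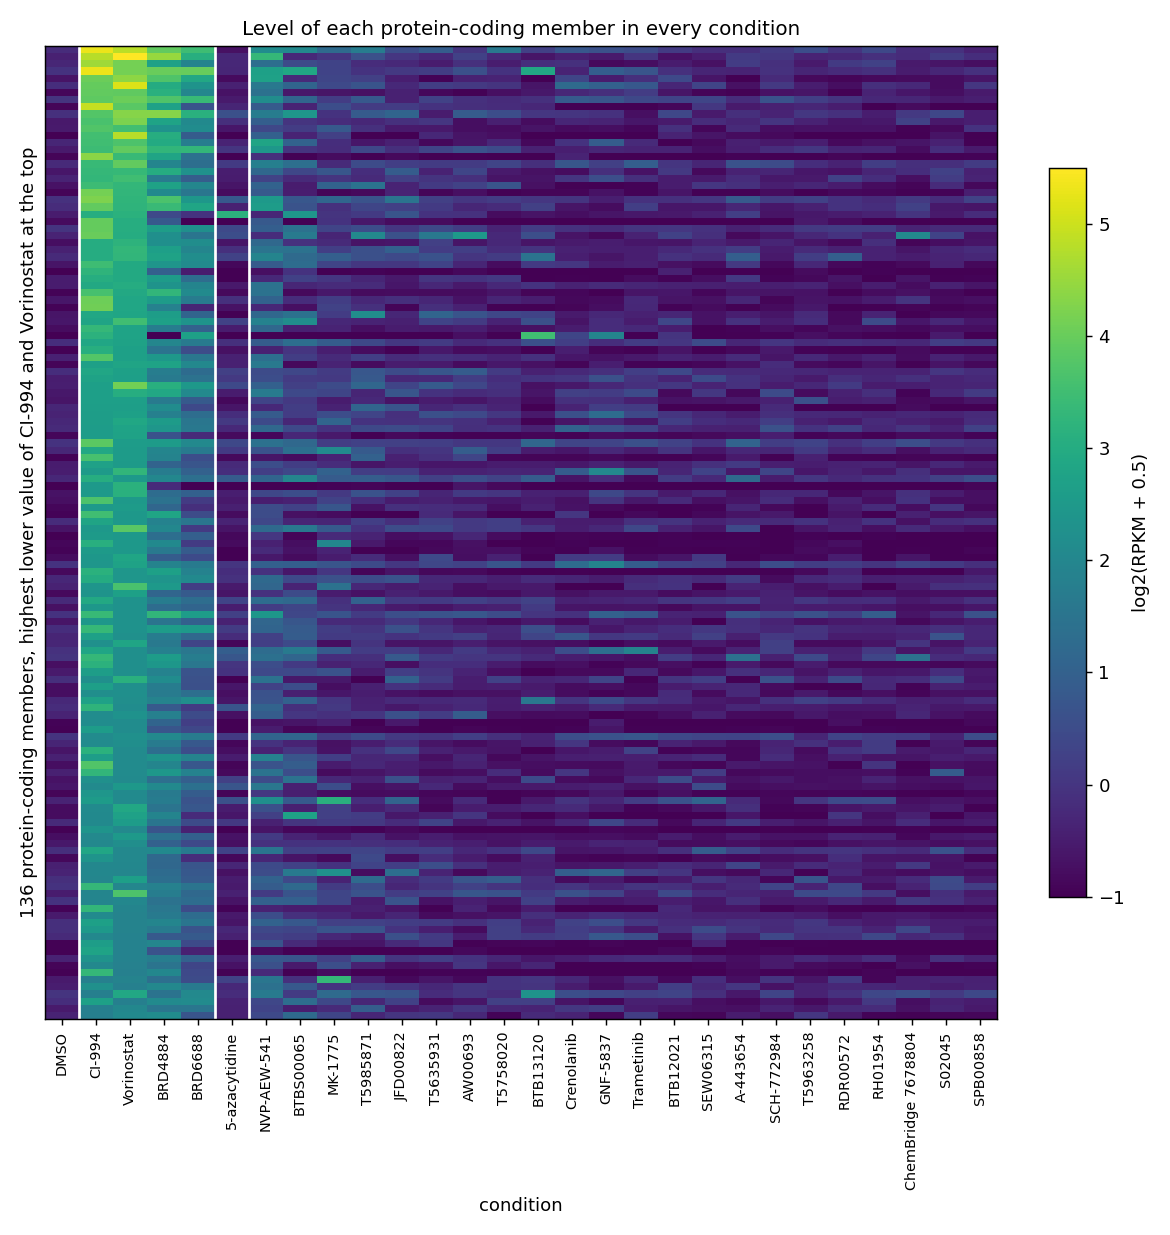
Heat map of log2(RPKM + 0.5) for the 136 protein-coding members (rows) in the 28 conditions (columns), with DMSO first, then the 4 HDAC inhibitors, 5-azacytidine and the 22 other compounds in order of the number of members above 0.5 RPKM. Values are high in all 4 HDAC inhibitor columns, lower in NVP-AEW-541, BTBS00065 and MK-1775, and near the DMSO level in most of the rest, with Tex19.1 the bright row in 5-azacytidine.

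BRD4884 and BRD6688 took no part in the choice of members, and both had most of the members above 0.5 RPKM. In BRD4884, 84 of 161 members (52.2%) were above 3 RPKM, beside 0.301% of all silent genes. In BRD6688, 41 members (25.5%) were above 3 RPKM, beside 0.177% of all silent genes. With the lower limit of 0.5 RPKM the counts were 154 members (background 3.83%) and 147 members (background 2.91%). Most silent genes were at 0 RPKM in DMSO, unlike most members. Among silent genes above 0 RPKM in DMSO the backgrounds at this limit were 11.7% and 8.95%. The members' median was 3.08 RPKM in BRD4884 and 1.81 RPKM in BRD6688, so that the order of the medians was CI-994, Vorinostat, BRD4884 and BRD6688, at doses that differ except between the last pair. Both BRD compounds had 36 members above 3 RPKM, BRD4884 alone had 48, BRD6688 alone had 5 and 72 members were above 3 RPKM in neither.

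The highest members in BRD4884 were Gsta4 (22.11 RPKM), Spata20 (19.32), Fblim1 (15.76), Adgrg1 (14.96) and Gstt1 (12.67). In BRD6688 they were Fblim1 (15.33 RPKM), Adgrg1 (10.58), Rasa4 (9.83), Mr1 (9.41), which presents microbial vitamin metabolites to T cells, and Spata20 (8.18). The level in BRD4884 was above the lower of the CI-994 and Vorinostat values for 23 members and above both for 1, the phosphatase gene Ptpn18 (3.96 against 3.02 and 3.75 RPKM). In BRD6688 it was above the lower value for 7 members.

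Junction reads gave each library's own value. For Gsta4 the libraries held 0.123, 0.394 and 0.6 RPM in DMSO, 38.1 and 36 in BRD4884, and 12.6 and 11.2 in BRD6688. CI-994 had 50.2 and 49.8, and Vorinostat 93.4 and 60.5. Every HDAC inhibitor library was above every DMSO library. For Gstt1, a theta-class glutathione transferase, the DMSO libraries held 0.0246, 0 and 0.3 RPM, BRD4884 18.4 and 15.7, and BRD6688 6.71 and 8.04. For Fblim1 the DMSO libraries held 0.886, 0.9 and 1.45 RPM, BRD4884 35.9 and 37.6, and BRD6688 28.4 and 32.5. Thus the BRD compounds were close for Fblim1 and apart for Gsta4 and Gstt1. Of the 126 members with junction events, 8 had no junction read in any DMSO library, where the rule asked for low levels.

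**Figure D3:**
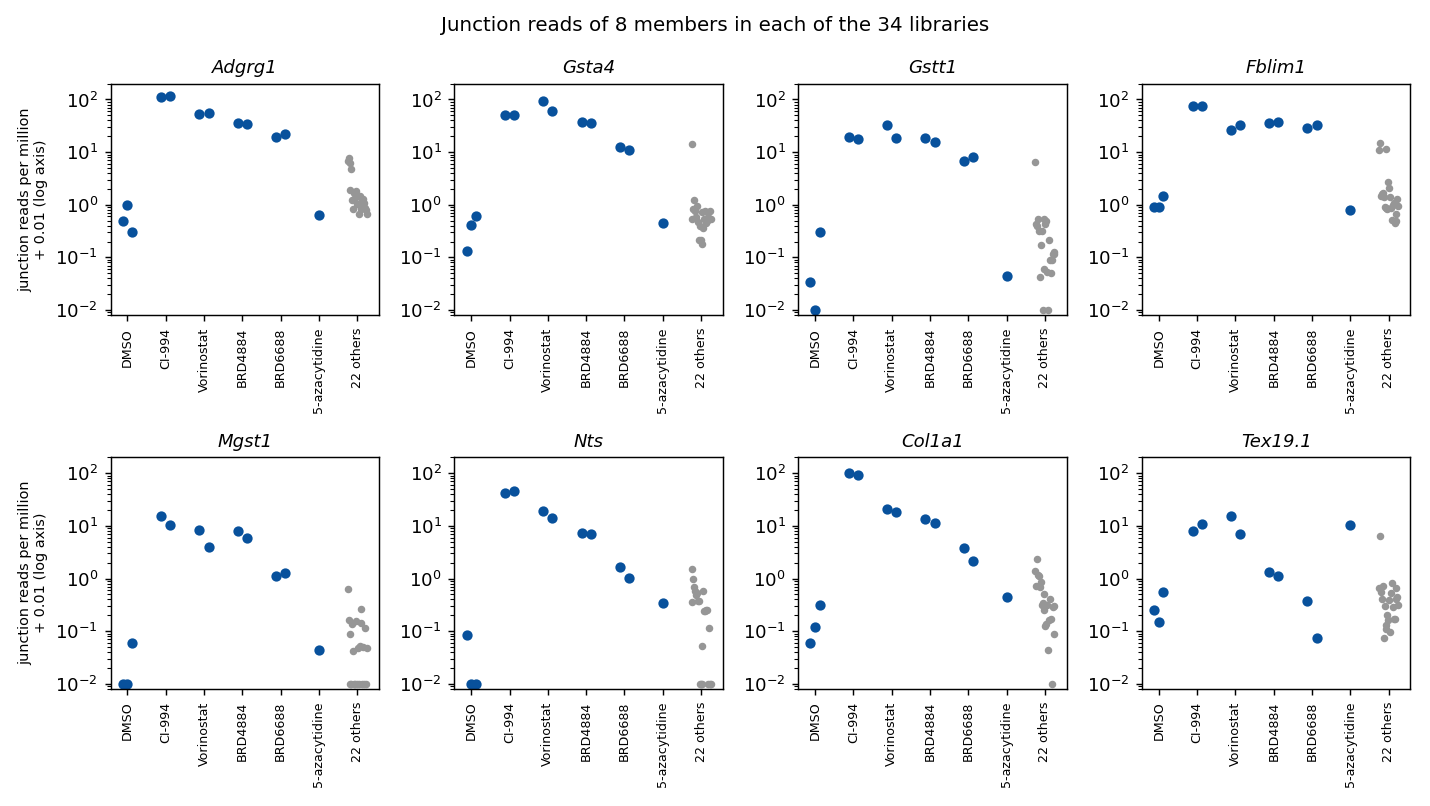
RPM of junction reads, with 0.01 added so that libraries at 0 can be drawn (log axis), for 8 members; each point is 1 library, in blue for DMSO, the HDAC inhibitors and 5-azacytidine and in grey for the 22 other compounds. Mgst1 and Nts are lower in both BRD6688 libraries than in every other HDAC inhibitor library. Fblim1 is only a little higher in both BRD4884 libraries than in both BRD6688 libraries. Tex19.1 is high in CI-994, Vorinostat, 5-azacytidine and 1 grey library (BTBS00065).

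To test the BRD compounds without the DMSO libraries that the rule used, each was compared with the 22 compounds that are neither HDAC inhibitors nor 5-azacytidine, taken as 1 reference group with 1 library per compound (limma on log2 of RPM plus 0.5, Benjamini-Hochberg adjustment over 12823 genes). The fitted differences understate the change of genes with few reads. In BRD4884, 124 of 125 fitted members were higher at an adjusted p under 0.05 and 0 were lower, whereas 26.6% of all genes fitted were higher and 7.31% were lower. In BRD6688, 103 of 125 were higher and 0 were lower, whereas 20.3% of all genes were higher and 10.5% were lower. The median log2 difference of the fitted members was 2.77 for BRD4884 and 1.86 for BRD6688, beside 0.20 and 0.13 over all genes. The filter on low reads kept 122 members on the reference libraries alone, so only a few passed it through the BRD libraries. Without the filter 125 and 103 of all 126 members with junction events were higher, beside 32.7% and 26.1% of all genes called either way. Scaling by the median of ratios moved the median of all genes by -0.13 and -0.08. The share of calls that were higher went from 78.4% to 63.8% for BRD4884 and from 65.9% to 54.3% for BRD6688. Under that scaling 124 and 103 members were higher, beside 34.3% and 31.4% of all genes called either way.

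Gsta4 had the largest fitted rise in BRD4884 among members, with a log2 difference of 5.00 (SE 0.58, limma adjusted p = 1.24e-07), and one of 3.40 (SE 0.58, limma adjusted p = 0.000113) in BRD6688. The 22 reference libraries ran from 0.172 to 14.5 RPM for this gene with a median of 0.534, and only the NVP-AEW-541 library overlapped the BRD6688 libraries. All 8 cytochrome P450 and conjugating enzyme members rose in both BRD compounds, with log2 differences from 1.95 to 5.00 in BRD4884 and from 0.59 to 3.40 in BRD6688. All 3 collagen members rose in both as well. Col1a1, the main chain of type I collagen, differed by 3.80 (SE 0.44, limma adjusted p = 1.2e-07) in BRD4884 and by 1.89 (SE 0.44, limma adjusted p = 0.00206) in BRD6688. Both neuronal and synaptic members, the synaptotagmin Syt3 and the neurexin-family adhesion protein Cntnap2, also rose in both. The germ cell members behaved otherwise. Tex15, a meiotic gene, rose in BRD4884 (1.62, SE 0.19, limma adjusted p = 1.02e-07) and had a difference of 0.42 (SE 0.19, limma adjusted p = 0.0831) in BRD6688. Tex19.1 passed in neither, with 0.91 (95% interval -0.12 to 1.93, limma adjusted p = 0.167) in BRD4884 and -0.39 (95% interval -1.41 to 0.63, limma adjusted p = 0.588) in BRD6688. It was the only fitted member that did not pass in BRD4884. Isg20, an interferon-induced exonuclease, Nppb, the B-type natriuretic peptide precursor, and Dapl1 were among the 22 members that did not pass in BRD6688, with differences of -0.03, 0.04 and 0.12. The spread of the reference group includes differences between compounds, and both BRD4884 libraries lay above all 22 reference libraries for 115 of 126 members and both BRD6688 libraries for 73, where 19.6% and 13% of all genes fitted did so.

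Members with known roles in signalling are given next, chosen after their values were seen and therefore named without a count. Dhh, the Desert hedgehog ligand, was at 0.09 RPKM in DMSO, 4.17 in CI-994, 4.19 in Vorinostat, 2.77 in BRD4884 and 2.1 in BRD6688, but its span overlaps that of the expressed gene Rhebl1 on the same strand. Gli1, the transcription factor whose own gene responds to hedgehog signalling, was at 0.06, 8.35, 4.85, 5.92 and 3.21 RPKM in the same order. Both passed against the other compounds, Gli1 with log2 differences of 4.27 in BRD4884 and 3.22 in BRD6688 and Dhh with 2.91 and 1.85. The receptor tyrosine kinase gene Axl had a difference of 4.86 in BRD4884 and 3.86 in BRD6688, and Pdgfra, the receptor for platelet-derived growth factor, one of 3.11 and 2.64. Pdgfra was at 9.12 RPKM in BRD4884 and 9.99 in CI-994, against 4.47 in Vorinostat, whereas Axl was at 5.47, 16.22 and 6.73 RPKM. Both integrin subunit genes passed in both BRD compounds, Itga2 with 3.63 and 3.32 and Itgb3 with 2.88 and 2.41.

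Several members act in innate immunity, again chosen after their values were seen. Tlr3, the endosomal receptor for double-stranded RNA, was at 0.12 RPKM in DMSO, 10.52 in CI-994, 9.30 in Vorinostat, 6.25 in BRD4884 and 3.43 in BRD6688. Irf5, an interferon regulatory factor, was at 0.40, 5.96, 3.02, 3.82 and 3.89 RPKM in the same order. Rsad2, the interferon-induced antiviral protein viperin, was at 0.12, 5.13, 8.20, 1.98 and 1.5 RPKM. These 3 passed in both BRD compounds against the other compounds, with log2 differences from 1.87 to 3.63 in BRD4884 and from 1.82 to 2.99 in BRD6688. So did most members: 124 of 125 fitted passed in BRD4884 and 103 in BRD6688. Isg20, also interferon-induced, passed in BRD4884 (0.83) and did not in BRD6688 (-0.03). In 5-azacytidine Tlr3, Irf5 and Rsad2 were at 0.14, 0.27 and 0.23 RPKM, close to their DMSO values.

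BRD4884 and BRD6688 were used at the same dose and time, and this was the 1 pair of HDAC inhibitors that could be compared at a matched dose. Across the 8 HDAC inhibitor libraries (limma, 11928 genes fitted), 88 of 126 members were higher in BRD4884 than in BRD6688 at an adjusted p under 0.05 and 0 were lower. Over all genes 14.5% were higher and 6.32% were lower in BRD4884. The median log2 difference of members was 0.86, beside 0.11 over all genes, and 125 of 126 fitted differences were above 0. Both BRD4884 libraries exceeded both BRD6688 libraries for 113 of 126 members, beside 45.6% of all genes fitted, and the reverse held for 0 members, beside 25.9%. The filter on low reads used all 8 libraries, CI-994 and Vorinostat included, where members are high by the rule. With the filter on the 4 BRD libraries alone, an alternative added after seeing the data, 87 of 124 members were higher and 0 lower. Of all genes fitted, 21.8% were called either way in that fit. Scaling by the median of ratios moved the all-gene median by -0.11 and the share of calls that were higher from 69.7% to 43.8%. Under that scaling 78 members were called higher and 0 lower, beside 23.1% of all genes called either way. The call rested on all 4 BRD libraries: far fewer members, and a far smaller share of all genes, were called when any 1 of them was left out. It rested on the inducers too, because the spread was estimated from all 8 libraries. Leaving out a Vorinostat library raised the number of members and the share of all genes called. Leaving out a CI-994 library lowered both.

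With the pseudocount of 0.5 the widest gap was at Mgst1, a microsomal glutathione transferase, with 7.93 and 5.91 RPM in BRD4884 and 1.13 and 1.29 in BRD6688, a log2 difference of 2.1 (SE 0.30, limma adjusted p = 0.00474). Its level in DMSO was 0, 0 and 0.05 RPM. Nts followed with 7.25 and 6.86 against 1.62 and 1.03 RPM, a difference of 2.07 (SE 0.21, limma adjusted p = 0.00172). Dmkn, an epidermal secreted protein, Aldh1a7, an aldehyde dehydrogenase, and Ramp3, which modifies the calcitonin receptor family, completed the 5 largest, with differences of 2.06, 2.05 and 2.01. The order within these 5 depended on the pseudocount: Dmkn was first with 0.1 (2.77) and Aldh1a7 was above Mgst1 with 1 (1.86 against 1.83). For none of these did the libraries of the compounds overlap.

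By group, 7 of 8 cytochrome P450 and conjugating enzyme members were higher in BRD4884, with a median difference of 1.25. Gstm6 was the exception at 0.72 (95% interval 0.13 to 1.30, limma adjusted p = 0.0734). All 3 collagens, all 3 serpin and protease members, both ion channels, both muscle genes and both germ cell members were higher in BRD4884 than in BRD6688, Tex19.1 with 1.32 and 1.1 against 0.356 and 0.0646 RPM. Of the neuronal and synaptic members, 0 of 2 passed the test, with differences of 0.33 for Cntnap2 and 0.45 for Syt3. No difference was detected for 38 members in all. Among them, Mr1 had 9.22 RPKM in BRD4884 and 9.41 RPKM in BRD6688, and in junction reads a log2 difference of 0.07 with a 95% interval of -0.25 to 0.39. Tead3, a TEAD transcription factor of the Hippo pathway, was the 1 fitted member with a value below 0, at -0.12 (95% interval -0.45 to 0.21), and Fblim1 had 0.27 (95% interval -0.03 to 0.56). These intervals bound a change at Mr1 and Tead3 well under that at Mgst1 or Nts, and do not show that the compounds act alike there.

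**Figure D4:**
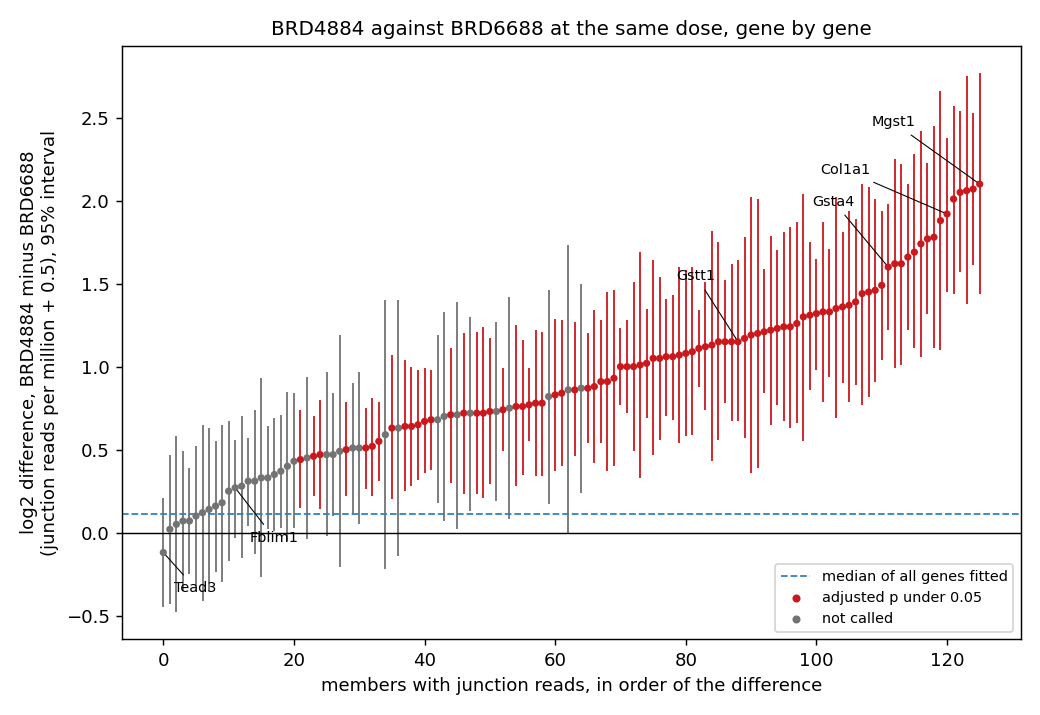
Log2 difference in RPM plus 0.5 between BRD4884 and BRD6688 (y axis) for the 126 members with junction events, ordered by size (x axis), with 95% intervals from limma; red marks an adjusted p under 0.05 and the dashed line the median of all genes fitted (0.11). The values climb from -0.12 at Tead3 to 2.1 at Mgst1, and the 88 red points are all above 0.

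In RPKM, 142 members were higher in BRD4884 and 19 in BRD6688. The share over all genes was not computed in RPKM, so these counts and the 2-fold counts are a description only. In junction reads both BRD4884 libraries exceeded both BRD6688 libraries for 45.6% of all genes fitted, and the reverse held for 25.9%. At least 2-fold differences were found for 60 members towards BRD4884 and 8 towards BRD6688. Of those 8, 7 were not protein-coding, such as the pseudogene RP23-191G17.4 (0 RPKM in BRD4884 and 6.99 in BRD6688), and the 1 coding gene was the read-through model RP23-387F9.7 (0 and 5.95 RPKM), which shares its strand and span with the expressed genes Ctnnd1, Selenoh and Tmx2. Neither was among the 126 members with junction reads, so these RPKM values have no replicate check. In BTB13120, RP23-191G17.4 and RP23-387F9.7 were at 16.43 and 10.88 RPKM.

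In 5-azacytidine, which inhibits DNA methyltransferases, the members' median was close to that in DMSO, and 1 coding member, Tex19.1, was above 3 RPKM. In all, 3 of 161 members (1.86%) were above 3 RPKM, beside 0.0632% of all silent genes. Above 0.5 RPKM were 41 members (25.5%), beside 1.88% of all silent genes and 5.49% of silent genes above 0 RPKM in DMSO. Of the 41, 30 were coding, such as the phosphatase gene Ppm1j with 1.15 RPKM against 0.16 in DMSO. Across the 22 other compounds the count above 0.5 RPKM ran from 18 to 121 members with a median of 38, so 5-azacytidine lay near the middle of single-library compounds. The members' median was 0.23 RPKM, against 0.19 in DMSO. There was 1 library, so no p-value was computed.

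Tex19.1, a germline gene that protects germ cells against transposable elements and is known to be kept silent by promoter DNA methylation in somatic cells, was that member. It was at 0.20 RPKM in DMSO, 7.81 in CI-994, 8.46 in Vorinostat and 8.48 in 5-azacytidine, but at 0.86 in BRD4884 and 0.47 in BRD6688. The 5-azacytidine library held 311 junction reads of Tex19.1 (10.4 RPM), against 10, 5 and 11 in the DMSO libraries, and CI-994 held 8.12 and 10.9 RPM. The next highest coding members in 5-azacytidine were Cntnap2 (1.41 RPKM), Exoc3l4 (1.31), Kdelr3 (1.22) and the cytochrome P450 gene Cyp4b1 (1.16), all under 3 RPKM. Tex15, the other germ cell member, was at 0.22 RPKM in 5-azacytidine and 0.11 in DMSO. The other 2 members above 3 RPKM, Gm24019 (4.39) and Gm23566 (4.06), are small RNA genes of 107 and 108 bases, and the next were the pseudogene RP23-19I2.6 (2.97) and the snoRNA gene Rnu3a (2.63). Among the 22 other compounds Tex19.1 was highest in BTBS00065, at 4.80 RPKM and 172 junction reads (6.54 RPM), and the median of the 22 was 0.342 RPM. BTBS00065 is listed in the study's compound table as a thymidine analogue carrying iodine.

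Of the 22 other compounds, NVP-AEW-541, an inhibitor of the insulin-like growth factor 1 receptor used at 1 µM, came nearest to the HDAC inhibitors. It had 15 members above 3 RPKM (9.32%, beside 0.0986% of all silent genes) and 121 above 0.5 RPKM (75.2%, beside 2.81%). Of silent genes above 0 RPKM in DMSO, 8.55% were above 0.5 RPKM. The members' median was 1.09 RPKM. All 15 were protein-coding, led by Gsta4 (9.58 RPKM), the relaxin gene Rln1 (6.41), Gstt1 (6.03), Fblim1 (5.92) and the ion channel gene Tmem63a (5.56). It was the highest of the 22 for 62 of the 136 coding members, a count for which no share over all genes was computed. Across coding members its level was a median of 32.3% of that in BRD4884 (quartiles 20.6% and 45.8%). In junction reads Gsta4 was at 14.5 RPM in NVP-AEW-541, above both BRD6688 libraries, and at 0.533 and 0.812 in BTBS00065 and MK-1775.

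BTBS00065 had 93 members above 0.5 RPKM (57.8%, beside 3.03% of all silent genes) and MK-1775, an inhibitor of the cell cycle kinase WEE1, had 84 (52.2%, beside 4.33%). Of silent genes above 0 RPKM in DMSO, 9.11% and 11.4% were above 0.5 RPKM. Above 3 RPKM were 7 members (4.35%, beside 0.0733% of all silent genes) and 11 members (6.83%, beside 0.233%). In BTBS00065 they were Fblim1 (6.82 RPKM), Dapl1 (6.16), Spata20 (4.84), Tex19.1 (4.80), Gstm6 (4.06), Adgrg1 (3.68) and Exoc3l4 (3.48). In MK-1775 the coding ones were Tnnt1 (9.47 RPKM), the slow skeletal muscle troponin T gene, Sec14l2 (8.28), Peli3 (4.38), Rab3il1 (3.92) and Ramp3 (3.51). Tnnt1 and Sec14l2 were higher in MK-1775 than in any HDAC inhibitor, where Tnnt1 ran from 0.89 to 3.22 RPKM and Sec14l2 from 1.08 to 5.41 RPKM. The same order held in junction reads, with 281 junction reads of Tnnt1 (10.9 RPM) in MK-1775 against 4.67 and 4.42 RPM in CI-994 and 6.33 and 3.86 RPM in Vorinostat. 

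The remaining 19 compounds had 0 to 8 members above 3 RPKM and 18 to 70 above 0.5 RPKM, and no more than 3 coding members above 3 RPKM. Of all silent genes, 0.0228% to 0.288% were above 3 RPKM and 1.12% to 3.78% above 0.5 RPKM in these 19. Of silent genes above 0 RPKM in DMSO, 3.18% to 11% were above 0.5 RPKM. Over all 22, 45 members passed 3 RPKM in at least 1 compound, 30 of them coding, beside 1.19% of all silent genes. The highest value of any member in them was that of Rnu3a, a U3 snoRNA gene, with 38.54 RPKM in T5985871, followed by RP23-191G17.4 and then Gm26318 with 10.97 RPKM in SEW06315, RP23-387F9.7 and Gm24019 with 9.99 RPKM in T5985871. None of these 5 was among the 126 members with junction reads, and their levels in DMSO were 0.45 RPKM for Rnu3a and 0 for the others.

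**Figure D5:**
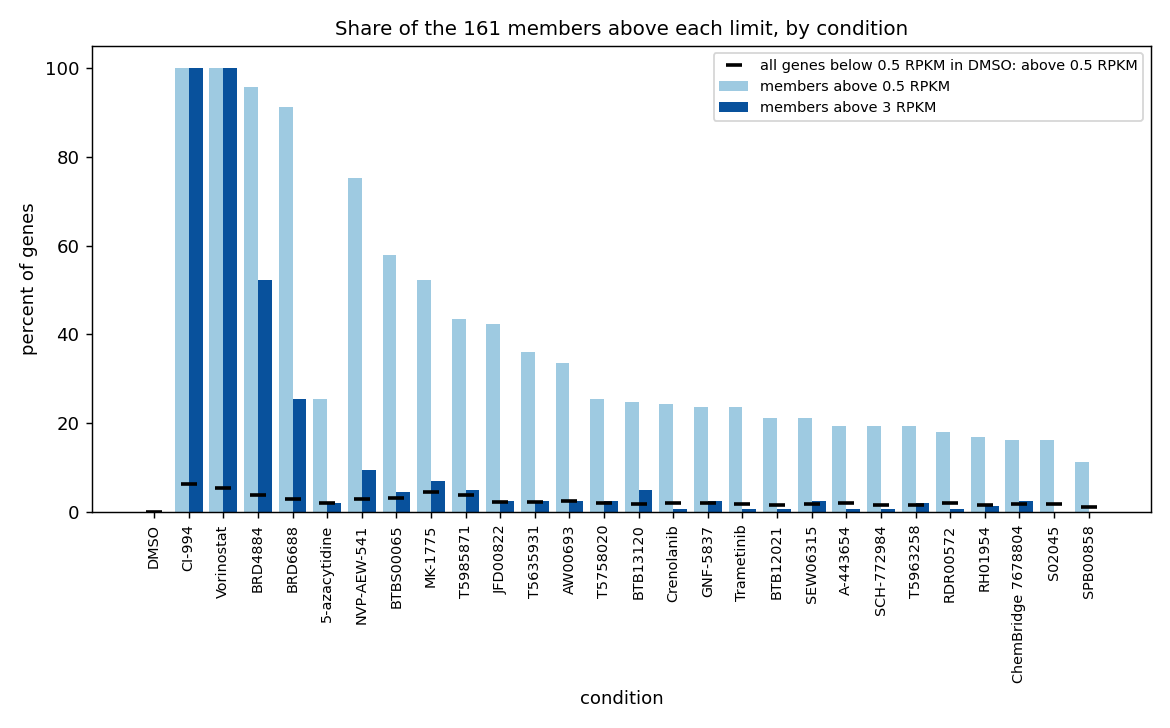
Percent of the 161 members above 0.5 RPKM (light bars) and above 3 RPKM (dark bars) in each of the 28 conditions, with a black mark for the percent of all genes below 0.5 RPKM in DMSO that are above 0.5 RPKM. The DMSO, CI-994 and Vorinostat bars are fixed by the rule; BRD4884 (95.7%) and BRD6688 (91.3%) follow, then NVP-AEW-541 (75.2%), and 5-azacytidine (25.5%) lies among the other compounds.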

How the data were processed

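PolyA+ RNA of N2A cells was sequenced from unstranded TruSeq v2 libraries (34 libraries, 28 conditions). The authors quantified genes with Salmon and deposited RPKM with the replicates of a condition pooled (submitters' notes name Salmon 0.10.2, edgeR and mm9). The authors' vast-tools event table was deposited with a quality field per library, read here as other values, from which reads across exon-exon junctions of intron events were taken and summed per gene symbol (5 members by an older symbol). These are sums of reads over events, and differ from counts per gene. The authors' fold changes and p-values were not used.

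RPKM was described without tests. Junction reads per 1000000 (RPM) were analysed as log2(RPM + 0.5) with limma 3.58.1 (R 4.3.3; lmFit, eBayes with trend, two-sided), keeping genes with a mean of at least 10 reads over the 8 HDAC inhibitor libraries, or at least 1 over the 26 libraries of the other fits. The members, gene lists and tests were chosen with earlier results of these data known. Named members were the 10 highest in both inducers, the 5 highest in each of BRD4884, BRD6688, 5-azacytidine and any other compound, the 5 largest differences between BRD4884 and BRD6688, up to 4 per gene list, and those nearest each limit. Others (the rest of the conjugating enzymes, Tead3, Tex15, Gstm6, Dapl1, Isg20, Nppb, Ptpn18, Hba-a1, Hba-a2, Ppm1j, the genes on in NVP-AEW-541, BTBS00065 and MK-1775, and the signalling and immunity genes) were chosen after their values were seen. Doses are as in the study's compound table, although a figure of the study has 2 µM for Vorinostat. The code was tested on simulated data. Gene identifiers were matched to GENCODE vM21 without version (52566 of 52661 genes). A marker gene in each of the neuronal and blood lists is not reported here.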

Additional observations from a re-analysis of the deposited data

How the results depend on the processing

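The number of members was 92 with a DMSO limit of 0.25 RPKM and 261 with 1 RPKM, 321 with an inducer limit of 2 RPKM and 72 with 5 RPKM. The percent of members on in BRD4884 was 91.9 and 24.8 with limits of 1 and 5 RPKM, 43.5 with the DMSO limit of 0.25 RPKM and 75 with the inducer limit of 5 RPKM. In BRD6688 it was 71.4 and 7.45 with limits of 1 and 5 RPKM and 41.7 with the inducer limit of 5 RPKM, and in 5-azacytidine 9.94 and 0.621 with limits of 1 and 5 RPKM. The median log2 ratio to DMSO of 2.28 in BRD4884 became 3.47 and 1.69 with pseudocounts of 0.1 and 1 and 2.54 when centred on genes above 5 RPKM. In BRD6688 1.67 became 2.73, 1.20 and 1.86, and in 5-azacytidine 0.10 became 0.26 with a pseudocount of 0.1. These shifts follow from the limits, pseudocounts and centring themselves.

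Between BRD4884 and BRD6688, 101 members were called when 1 Vorinostat library was left out, beside 42.4% or 42.6% of all genes fitted. With 1 CI-994 library left out 71 were called, beside 9.62% or 9.48%. With a BRD library left out far fewer members and a far smaller share of all genes were called. A lone library was assumed to vary like the other conditions. Under the 9 other settings 59 to 92 members were called, and the share of all genes ran from 4.11% to 31.4%. With the replicate block 85 members were called, beside 17.8% of all genes fitted. Over all genes, same-lettered libraries showed little common deviation (6 correlations from -0.15 to 0.03). A pairing that touched only part of the genes could be missed by these correlations. Against the other compounds the counts ran from 115 to 125 (BRD4884) and from 73 to 111 (BRD6688), with settings added after seeing the data included. In all these fits 0 members were lower. Against the other compounds, with both BRD libraries kept, 32.7% to 37.3% of all genes were called for BRD4884. For BRD6688 the share was 26.1% to 34.9%. Both shares were smaller when a library of the BRD compound was left out. Of 75 single-gene values for the 5 largest differences 7 lost the call, all with a BRD library left out, and 0 reversed; in these the differences were 1.54 to 2.17, with fewer libraries in the fit. Doses, single libraries and few junction reads limit what can be compared.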
